A study of Mus musculus with 2 samples.

Results

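The miRNAs described here are products of the mouse cluster that runs from miR-17 to miR-92a on chromosome 14 and of its paralogue on the X chromosome, which runs from miR-106a to miR-363. They were chosen by name from the authors' deposited table of ratios: mmu-miR-17, mmu-miR-18a, mmu-miR-18a*, mmu-miR-18b, mmu-miR-19a, mmu-miR-19b, mmu-miR-20a, mmu-miR-20b and mmu-miR-106a, 9 of 376 miRNA assays on the plate. The study asked which miRNAs are bound to Stat3 mRNA in RAW264.7 cells, a mouse macrophage line. Either a Stat3 probe or a control probe was transfected for 24 h, the captured RNA was recovered on streptavidin beads, and miRNAs were measured by SYBR green PCR on Exiqon plates. The labels give 1 pull-down per probe, both from RAW264.7 cells with no other treatment named, so no spread between pull-downs can be given. The sources used here do not give the probe sequences, the segment of Stat3 mRNA they pair with or the nature of the control probe.

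The members of each cluster are cut from 1 long primary transcript of that cluster into separate hairpins. Each hairpin can yield a guide strand and a second strand from its opposite arm, marked with an asterisk in older names. A miRNA recognises mRNAs mainly through its seed, bases 2 to 8 from the 5′ end. The cluster headed by miR-17 is activated by MYC and promotes proliferation and survival and is highly active in dividing haematopoietic cells, and its miR-17 and miR-20a are known to lower Stat3 in myeloid cells.

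The mature sequences are shown because the comparisons below are made between seeds and between near-identical miRNAs. All 9 members had an entry in RefSeq (GRCm38.p6), and the lines give each 5′ to 3′ with the seed in capitals.
miR-17: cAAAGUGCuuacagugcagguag
miR-20a: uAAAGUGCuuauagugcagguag
miR-20b: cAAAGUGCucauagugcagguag
miR-106a: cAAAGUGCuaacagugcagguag
miR-18a: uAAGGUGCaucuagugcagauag
miR-18b: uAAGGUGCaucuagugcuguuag
miR-18a*: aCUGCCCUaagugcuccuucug
miR-19a: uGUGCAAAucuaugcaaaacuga
miR-19b: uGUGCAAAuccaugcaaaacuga
The miR-17, miR-20 and miR-106 members share 1 seed, and the seed of miR-18a and miR-18b differs from it by the single substitution A4G (positions counted from 1 at the 5′ end, miR-17 base first). The miR-19 seed differs from that of miR-17 at 7 positions, and the seed of miR-18a* is found in no other member. Of 1679 mature mouse names in the RefSeq table, 7 (0.417%) carry the miR-17 seed, 2 the miR-18 seed, 2 the miR-19 seed and 2 that of miR-18a*, the other being miR-7069-3p. Outside the seed miR-106a differs from miR-17 only by U10A, miR-19b from miR-19a only by U11C, and miR-18b from miR-18a by A18U and A20U.

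On chromosome 14 the cluster lies on the plus strand, its 6 hairpins spanning chr14:115043671-115044506, and holds miR-17 (chr14:115043684-115043706), both arms of miR-18a, miR-19a, miR-20a (chr14:115044183-115044205) and 1 of the copies of miR-19b. On the X chromosome the cluster lies on the minus strand, its 6 hairpins spanning chrX:52741693-52742567, and holds miR-106a (chrX:52742541-52742563), miR-18b, miR-20b and the other copy of miR-19b. The mature miR-19b is the same from both, so its assay cannot tell the loci apart.

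Levels are given as Ct, the cycle at which a well crosses the detection threshold, so that a lower Ct stands for more template and 1 cycle for a factor of 2 at full efficiency. Assays differ in efficiency, so an order of different assays by Ct does not rank their abundance. An assay was called measured when it crossed before cycle 35. Each ratio divides the Stat3 pull-down by the control pull-down, on the linear scale of the authors' deposited table, which adds 0.7 cycles to every difference. With the control probe 121 of 384 wells lay below 35, and with the Stat3 probe 132. Error is taken here from the spread of the 3 UniSp3 wells, an equal template in each. Their control minus Stat3 Ct averaged -0.89 ± 0.97 cycles (SD, n = 3 wells), with a range of 1.93 cycles. That range rests on 1 well: counting plate row A as odd, the wells in odd rows C and E gave 0.02 and -0.76, a range of 0.78, and the well in even row B gave -1.91. That spread covers the PCR and not the pull-down, and only at Ct 21.18 to 23.67, earlier than any measured member. Of the 8 macrophage miRNAs listed as markers, such as miR-142-3p, miR-21 and miR-155, 7 were measured with both probes. Of the 13 markers of other cell types 4 were: erythroid miR-451, neural miR-9, epithelial miR-200c and endothelial miR-126-3p. Another 3 of the 13 were measured with 1 probe only. The remaining 6, among them all 4 muscle miRNAs, were at or above 35 cycles in both. The markers measured with both probes were therefore not confined to the macrophage list. The share of all miRNA assays measured with both was 26.6%, near that of the other cell types, so their count is no result about them.

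Of the 9 members, 6 were measured in both pull-downs, against 26.6% of all miRNA assays. These were miR-17, miR-20a, miR-106a, miR-18a, miR-18a* and miR-19b. miR-18b, miR-19a and miR-20b were at or above 35 cycles with both probes. All 6 measured members had a lower Ct with the Stat3 probe, none of their wells carried an instrument warning, and 5 of the 6 were at least 2-fold higher on the deposited scale. The share of all 100 miRNA assays measured in both that passed the same limit was 73.0%, near the members' share. At 4-fold, 1 of the 6 passed, miR-18a*, against 53.0% of all assays. The 6 had a median of 2.95-fold, below the 4.22-fold median of all 100.

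**Figure D1:**
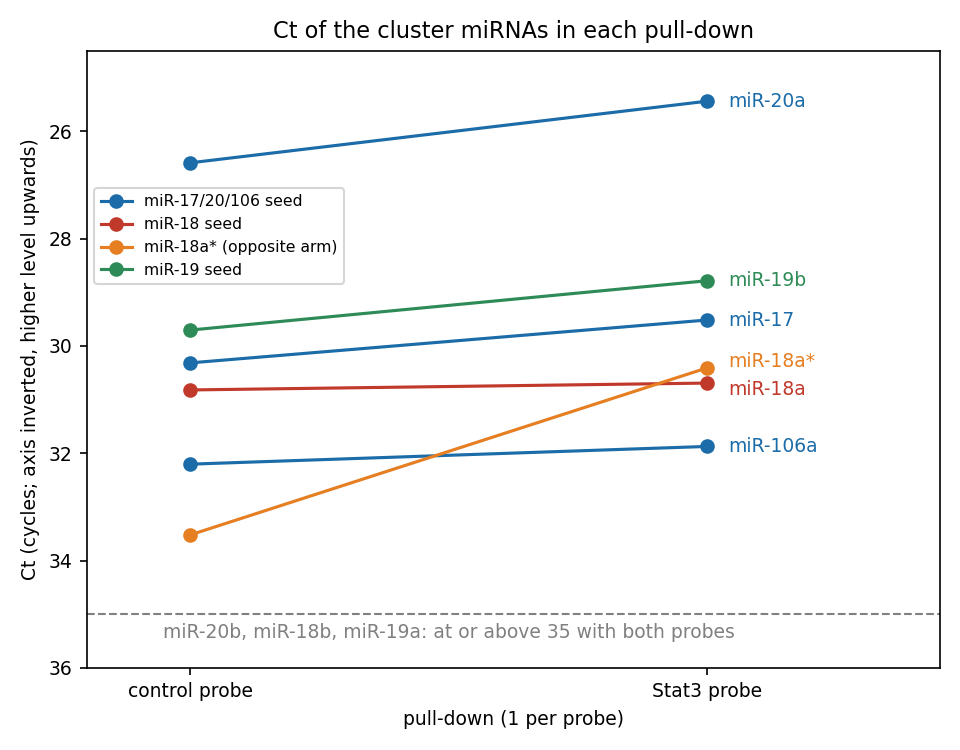
Ct of each measured member (y axis, cycles, inverted so that higher levels are at the top) with the control and the Stat3 probe (x axis, 1 pull-down each); each line is 1 miRNA, coloured by seed, and the dashed line is the limit of 35 cycles. The guide strands keep their order, while miR-18a* moves from the highest Ct, 33.52, past miR-106a and miR-18a to 30.41.

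Among the assays with the miR-17 seed, that of miR-20a had by far the lowest Ct. It crossed at 26.59 cycles in the control pull-down and at 25.44 in the Stat3 pull-down, rank 2 of 114 and rank 1 of 123 miRNA assays tied to a well below 35. Its ratio was 3.60-fold, the highest of the guide strands in these clusters. miR-17, the founding member of the family, crossed at 30.32 cycles in the control pull-down and at 29.52 in the Stat3 pull-down, 2.83-fold higher. miR-106a, from the X chromosome, crossed at 32.20 and 31.87 cycles, 2.04-fold higher. All 3 passed the 2-fold limit, as did 73.0% of all assays, and their median of 2.83-fold lay below the 4.22-fold of all assays. Without the offset only miR-20a passed. On the deposited scale miR-106a passed only just: the assays around the limit were miR-146b at 1.99-fold, miR-130b at 2.04-fold and miR-484 at 2.05-fold. The ratios of the 3 spanned 0.82 cycles, less than the range of all 3 calibrator wells, and the pair in odd rows, miR-17 and miR-20a, differed by 0.35, less than the odd-row range. Their Ct values were further apart, with miR-20a 3.73 cycles below miR-17 in the control pull-down and 4.08 in the Stat3 pull-down.

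miR-17 and miR-106a differ by 1 base and lie in different sets of plate rows. The 26 assays in even rows had a median ratio of 1.80-fold and the 74 in odd rows one of 5.01-fold. miR-106a, in row F, was the 1 measured member in an even row, where 46.2% of assays passed the 2-fold limit. The other 5 lay in odd rows, where 4 of them passed, against 82.4% of all assays there. On the deposited scale miR-17 was above miR-106a by 0.47 in log2 ratio. Set against the median of its own rows, miR-17 was at 0.564-fold and miR-106a at 1.13-fold, which turns their order, with a difference of -1.01. The medians of the row sets differed by -1.47 on the log2 scale, even minus odd. The UniSp3 template differed by -1.54 between its 1 well in an even row and the mean of its 2 wells in odd rows. Some miRNAs have a mouse-named assay in odd rows and a rat-named assay in even rows. Their log2 ratios, odd then even, were 0.51 and 0.85 for miR-223, and 0.99 and 1.20 for miR-146b. They were -0.30 and 0.58 for miR-200c, and 0.68 and 2.60 for miR-338-3p and rno-miR-338. Each of these was higher in the even row, opposite to the medians. Whether the row sets themselves shift the ratios was not tested, so values set against row medians rest on that assumption.

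**Figure D2:**
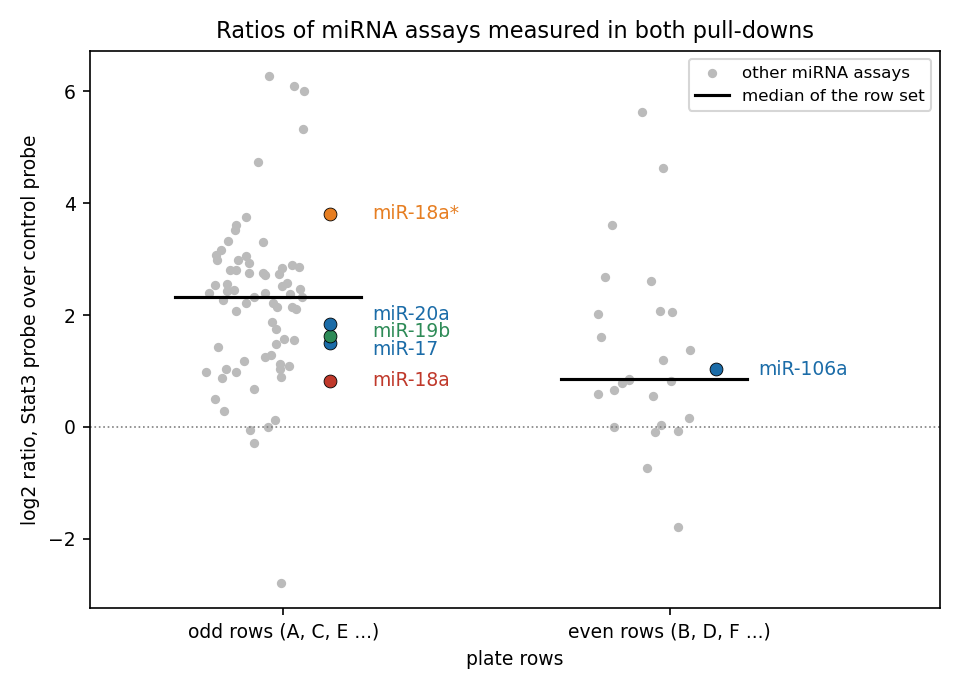
Log2 ratio of Stat3 probe over control probe (y axis) for the 100 miRNA assays measured in both pull-downs, split into all odd plate rows (A, C, E, G to O) and all even plate rows (B, D, F, H to P) on the x axis; grey points are other assays, coloured points the 6 members, and black lines the medians of 5.01-fold and 1.80-fold. miR-17, miR-18a, miR-19b and miR-20a lie below the median of their rows, miR-106a just above its own, and miR-18a* well above.

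miR-19b crossed at 29.71 cycles in the control pull-down and at 28.79 in the Stat3 pull-down, 3.07-fold higher. It lay between miR-20a and miR-17 both in Ct and in ratio. Its ratio differed from that of miR-17 by 0.12 and from that of miR-20a by 0.23 on the log2 scale, both far inside the calibrator range. miR-19a, which differs from miR-19b by 1 base, was not below 35 cycles with either probe. That places its Ct at least 5.29 cycles above that of miR-19b in the control pull-down and at least 6.21 in the Stat3 pull-down. miR-19a, miR-18b and miR-20b are listed at 1.625 in the authors' deposited table, which is what the offset of 0.7 cycles gives by itself and no measurement. Their wells are among 238 at or above 35 on both plates, of which 126 gave a Ct on at least 1 plate, so these 3 may still be present at a low level.

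miR-18a crossed at 30.82 cycles in the control pull-down and at 30.69 in the Stat3 pull-down, nearly the same, and its ratio was 1.78-fold, the lowest of the measured members. Without the offset it was 1.09-fold. Of the 100 assays 79 had a higher ratio. It was the only measured member under the 2-fold limit and, at 0.354-fold, the only one more than 2-fold below the median of its own rows. Of all 100 assays in both row sets, each set against its own rows, 22.0% lay that far below. The assay is one of the miR-18 seed group, whose other member, miR-18b, was at the ceiling with both probes.

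The opposite arm had a much higher ratio. miR-18a* crossed at 33.52 cycles in the control pull-down, rank 78 of the measured assays, and at 30.41 in the Stat3 pull-down, rank 50, which made it 14.1-fold higher. Only 7 of the 100 assays had a higher ratio. The hairpin of the gene Mir18 (chr14:115043851-115043946, plus strand, GRCm38.p6) is shown because both assays read from it, with miR-18a (bases 17 to 39) and then miR-18a* (bases 58 to 79) in capitals.
Mir18 hairpin: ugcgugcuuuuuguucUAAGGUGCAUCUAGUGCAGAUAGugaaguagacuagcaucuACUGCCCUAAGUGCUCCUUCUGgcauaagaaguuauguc
With the control probe the Ct of miR-18a* was 2.70 cycles above that of miR-18a. With the Stat3 probe it was 0.28 cycles below. The log2 ratios of the arms therefore differed by 2.98, a factor of 7.92, which is more than the calibrator range of 1.93 cycles. The calibrator wells crossed at 21.18 to 23.67 cycles, so their range does not give the error at the later Ct of miR-18a*. Both wells lie in odd rows, so the row difference does not enter into it. Each arm rests on 1 well per plate, and no replicate bears on the difference.

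For context, 31 pairs of arms are listed on the plate and 3 were measured in both pull-downs. The 3p arm of miR-324 was above its 5p arm by 1.47 on the log2 scale and that of miR-582 by 0.74. The arms of miR-324 lie in different sets of rows, and with each set against its own rows they differed by 2.95, nearly as much as those of miR-18a, while the value for miR-582 was unchanged. Of the 10 assays with an asterisk in their name, miR-18a* was the only one below 35 cycles with either probe, and the other 9 were at or above it with both. In the same clusters miR-20a* and the rat-named assays of the second strands of miR-17 and miR-20b were at or above 35 with both. The control Ct of miR-18a* is late. Another 18 assays measured in both had a control Ct within 0.5 cycles of it. On the deposited scale their ratios ran from 0.601-fold to 12.3-fold with a median of 3.98-fold, and each of the 18 lay below miR-18a*. That scale does not set assays against their own rows. The highest of the 18, miR-324-3p, lies in even rows, where the median was 1.80-fold, against 5.01-fold in the odd rows of miR-18a*. Set against its own rows, miR-324-3p stood above miR-18a*. On the deposited scale, by the same distance in control Ct, miR-18a had 13 of 16 assays above it, miR-17 8 of 13, miR-19b 6 of 9 and miR-106a 6 of 11. No other assay had a control Ct within that distance of miR-20a.

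**Figure D3:**
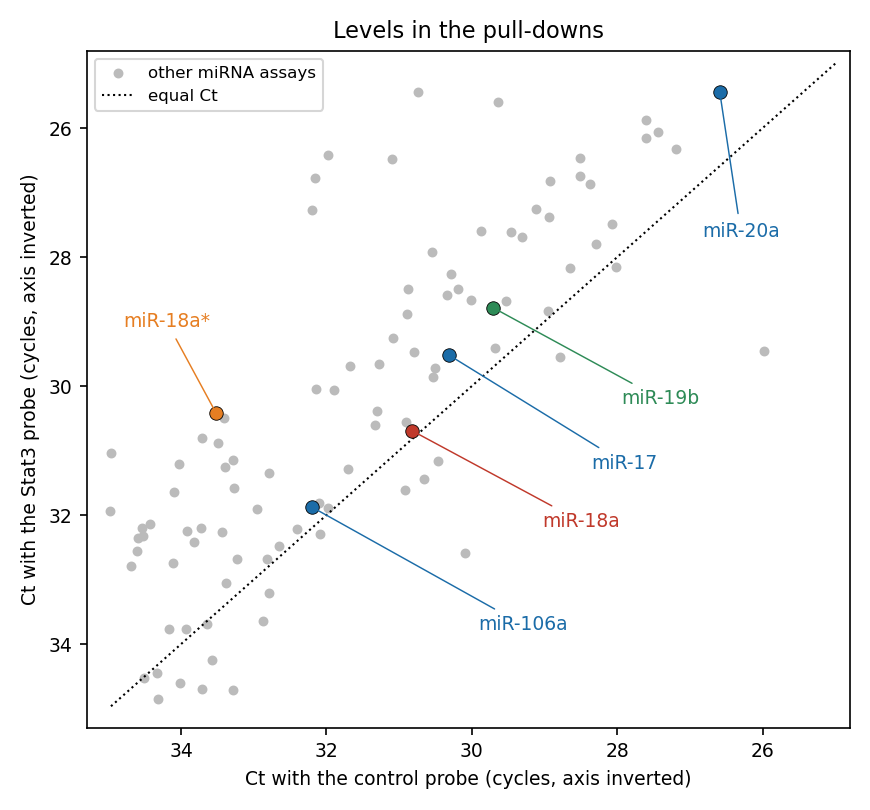
Ct with the Stat3 probe (y axis) against Ct with the control probe (x axis), both in cycles and inverted, for the 100 miRNA assays measured in both pull-downs; the dotted line marks equal Ct, and the coloured points are the members. miR-18a and miR-106a lie close to equal Ct, with differences of 0.13 and 0.33 cycles, and miR-18a* lies 3.11 cycles above it.

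The order of Ct among the measured members was the same with both probes except for miR-18a*. As assays differ in efficiency, this order and the gaps in it do not rank abundance. With the control probe the order ran miR-20a, miR-19b, miR-17, miR-18a, miR-106a, miR-18a*, and with the Stat3 probe miR-18a* came between miR-17 and miR-18a. The Ct of the calibrator wells ranged over 0.57 cycles on the control plate and over 2.20 on the Stat3 one. Beyond that range, neighbours in the order were separated on the control plate except miR-17 and miR-18a, 0.50 cycles apart, and on the Stat3 plate only miR-20a was separated, by 3.35 cycles from miR-19b. Both statements depend on the well in row B. The other calibrator wells lay 0.31 cycles apart on the control plate, less than each gap there, and 0.47 apart on the Stat3 plate, where the gaps of 0.73 between miR-19b and miR-17 and of 0.89 between miR-17 and miR-18a*, all in odd rows, exceed that. Of the 15 pairs of measured members 5 differed in ratio by more than the calibrator range, and each of the 5 included miR-18a*. The control Ct of miR-18a* is far later than that of the calibrators, whose range does not give the error there. Its distance from miR-20a, 1.96, was the closest to that range. Its distance from miR-106a was 2.78 but 1.31 when each was set against its own rows. Without miR-18a*, the 5 guide strands lay within 1.02 cycles of each other, and within 1.68 when set against their own rows. Among the 4 guide strands in odd rows, 2 of 6 pairs differed by more than the odd-row calibrator range of 0.78: miR-18a lay below miR-20a by 1.02 and below miR-19b by 0.79. The second of these barely exceeds it, 0.792 against 0.783. That range is the difference between 2 wells, so it cannot tell whether either pair differs beyond error.

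Where the members stood relative to no change depended on the scale. The deposited offset raises every ratio by 0.7 cycles, and without it the ratios were 2.22-fold for miR-20a, 1.89-fold for miR-19b, 1.74-fold for miR-17, 1.26-fold for miR-106a, 1.09-fold for miR-18a and 8.65-fold for miR-18a*. Then 2 of the 6, miR-20a and miR-18a*, passed the 2-fold limit, against 56.0% of all assays. Set against the 4.22-fold median of all assays, the 5 guide strands lay below it, from 0.854-fold for miR-20a to 0.421-fold for miR-18a, and miR-18a* at 3.33-fold. Set against the median of their own rows, 4 lay below and 2, miR-106a and miR-18a*, above. miR-18a* then stood at 2.80-fold, with 10 of the 100 assays higher.

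**Figure D4:**
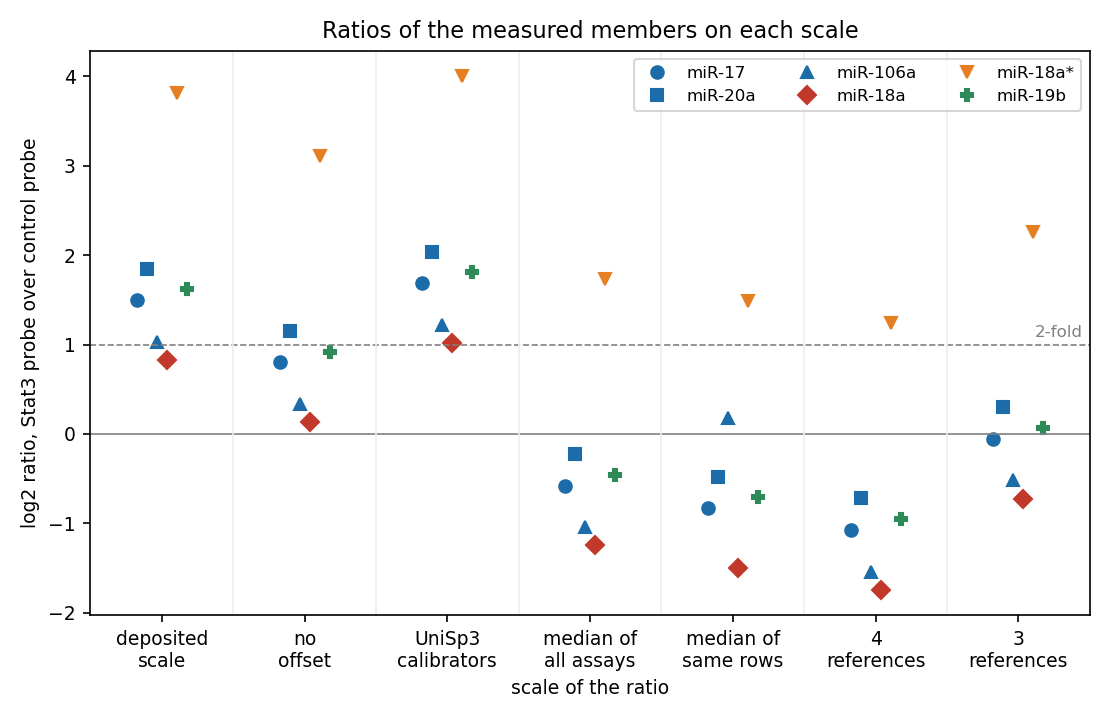
Log2 ratio of Stat3 probe over control probe (y axis) of the 6 measured members on 7 scales (x axis): as deposited, without the offset, and relative to the calibrators, to the median of all assays, to the median of the same plate rows, and to 4 or 3 reference miRNAs; the dashed line marks 2-fold. miR-18a* stays above 2-fold on each scale, while the guide strands lie above 0 on the first 3 scales and, except miR-106a relative to its own rows and miR-20a and miR-19b relative to 3 references, below 0 on the others.

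By locus, 4 of the 5 members found only in the chromosome 14 cluster were below 35 cycles with both probes. Of the 3 found only in the X cluster 1 was, miR-106a. As miR-106a differs from miR-17 by 1 base, its assay may also read miR-17, which was not tested. The share of all miRNA assays was 26.6%, and a difference between the loci was not tested. miR-363-3p, the last product of the X cluster, was also at or above 35 cycles with both probes, and so was miR-92b, a relative of miR-92a encoded elsewhere. miR-92a itself was not analysed here. In the third paralogous cluster, miR-106b-25, miR-93 shares the miR-17 seed and crossed at 29.46 and 27.61 cycles, 5.84-fold higher, above each measured member with that seed. Its distance from miR-106a, the lowest of them, was 1.52 on the log2 scale, but 0.041 when each was set against its own rows. miR-106b, with the same seed, was at the ceiling with both probes, and miR-25, whose seed is that of miR-92a, was at 77.2-fold. Over the 3 clusters, 4 of 6 assays with the miR-17 seed were measured in both pull-downs, against 26.6% of all miRNA assays. All 4 were at least 2-fold higher on the deposited scale, where 73.0% of all assays were, and without the offset 2 were, miR-20a and miR-93.

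The assays nearest to each member in both Ct values, over 2 pull-downs, were miR-146a and miR-151-5p for miR-17, miR-16 and miR-21 for miR-20a, and miR-30c and miR-182 for miR-19b. miR-106a was nearest to miR-146b and miR-351, and miR-18a to miR-484 and miR-107. miR-18a* was nearest to miR-324-3p, 0.14 cycles away with a ratio of 12.3-fold, and to miR-365 at 12.2-fold. The other distances ran from 0.12 cycles for miR-146b to 1.07 for miR-21, and no member was among the 2 nearest assays of another.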

How the data were processed

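Per the file headers, the deposited plate files are SDS 2.3 exports with a Ct for each of 384 wells, a manual threshold of 0.15 and no normalization. They carry no assay names. The authors' deposited table gives 1 ratio per named assay, called a log fold change in its header. All 384 ratios, sorted, were reproduced within 0.0005 by raising 2 to the difference in Ct (control minus Stat3) plus 0.7, with Ct limited to 35. Names were tied to wells by this identity, which is stated in no label. Of 146 rows off the offset, 142 matched 1 well and 4 matched 2, none of these a member. The UniSp6 spike-in was taken as the well of lower Ct in its pair.

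Log2 ratios were recomputed from the plates with Python 3.11.15. The matching of names to wells was run on simulated plates made with the same identity. That checks the matching step, and cannot show that the identity holds for the real plates. With 1 pull-down per probe there is no test. The design foresaw relative levels, and their log2 ratio equals the difference in Ct. The members, lists, comparisons and scales were chosen with earlier results of these data known. The text names the 9 members, further products of these and the paralogous clusters, reference and marker miRNAs, the 2 nearest assays of each measured member by Euclidean distance in both Ct values, and assays beside the 2-fold limit. The comparison at like control Ct, the pairs of arms, the scales on 3 references and on UniSp3, the calibrator range by row set, and the difference between miR-17 and miR-106a were added after the values were seen.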

Additional observations from a re-analysis of the deposited data

How the results depend on the processing

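The ratios rest on 1 well per plate, and the Ct limit sets which members can be compared: the 3 at or above 35 cycles have no value under any setting. No paired analysis was possible because each probe has 1 pull-down. Of 108 alternative values for 12 results, 67 kept their direction and moved by less than the calibrator SD of 0.97 cycles, or for counts by less than 1.5 times. With Ct limits of 33 or 40 cycles and without wells that carried a warning, all results stayed so. The difference between the arms of miR-18a was 2.98 under each scaling, since a common factor cancels and both wells lie in the same set of rows, and 2.46 with the limit of 33 cycles, where the control Ct of miR-18a* is at the limit.

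The scale moved the direction of the guide strands. Centred on the median of all assays, the log2 ratios were -0.58 for miR-17, which is also the median of its seed group, -0.23 for miR-20a, -1.05 for miR-106a, -1.25 for miR-18a, -0.46 for miR-19b and 1.74 for miR-18a*. Centred on the 4 reference miRNAs miR-423-3p, miR-16, miR-191 and miR-103, they were -1.07, -0.72, -1.54, -1.74, -0.95 and 1.24. Without miR-423-3p, whose ratio was 49.5-fold, they were -0.053, 0.30, -0.52, -0.72, 0.068 and 2.26. Centred on the median of the same plate rows, they were -0.83 for miR-17, -0.48 for miR-20a, which is then the median of the seed group, -1.50 for miR-18a, -0.71 for miR-19b and 1.49 for miR-18a*, while miR-106a stayed above 0 at 0.18. The difference between miR-17 and miR-106a was then -1.01. The count of members at least 2-fold higher was 2 without the offset, where 56.0% of all assays passed. It was 6 relative to the UniSp3 wells and 1 on each of the other 4 scales, in each case miR-18a*. The share of all assays on those scales was not worked out, so these counts are no result about the members. These shifts follow from the constants subtracted, which the scales define, and no value here tells which scale is right.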
